A study of Mus musculus with 8 samples.

Results

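The genes described here are Loxl2 and 38 named genes that surround it on mouse chromosome 14, from Bnip3l, 2.60 Mb before Loxl2, to Xpo7, 0.958 Mb after it. The list is given by name and position on the chromosome. Of these 39 genes, 33 had a row among the 20681 of the expression table, and 31 were abundant enough to be tested. Entpd4, Sftpc, Adam28, Adamdec1, Nefm and Nefl had no row of that name and were not analysed here. Fgf17 and Npm2 had rows but fell under the filter, which asks that 4 or more libraries reach a value of 10.

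RNA of mouse knee joints was measured by poly-A sequencing in 8 libraries, 4 of a control group and 4 of a group labelled knockout. The design text gives Acan-Cre with floxed Loxl2 as the genotype of the mice, so that Cre acts in cells that express the aggrecan gene, mainly chondrocytes, and the other cells of a joint keep Loxl2. Controls are described as vehicle-treated, and their library names carry LOXL2wt, while those of the knockout group carry LOXL2ko. The abbreviation DMM stands in all 8 names and is not explained. Age, sex, strain, and any agent given to the knockout group in place of vehicle are not stated, nor is whether the control mice carried the floxed alleles. Nothing in the labels says that the 4 libraries of a group came from separate animals, so p-values measure the spread between these libraries, which may in part be technical.

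Loxl2 encodes lysyl oxidase-like 2, a secreted copper-dependent enzyme that oxidises lysines of collagen and elastin and so begins their crosslinking. Neighbouring genes can share enhancers, and an engineered deletion can alter them in cis. DNA flanking an engineered allele is also inherited with it, so that animals with and without the allele can carry different versions of its neighbours. In either setting several genes close to the target would be looked at for changes, which is the question asked here. Such changes need not share a direction, so counts by sign are given as a description. The neighbours themselves have functions of several kinds and include a collagen-processing protease, ion carriers, phosphatase subunits, cytoskeletal proteins and transcription factors.

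The libraries held 13991000 to 17411617 reads assigned to genes. Loxl2 (mm10, chromosome 14, 69609068 to 69695834, plus strand) had 282, 349, 1135 and 311 normalised reads in the controls and 893, 1468, 960 and 1518 in the libraries labelled knockout, each time in the order of replicates 1 to 4. Control replicate 3 stood with the libraries labelled knockout, and the groups overlapped. The mean was higher in the group labelled knockout, against the label, with a log2 difference of 1.44 ± 0.40 (SE, limma adjusted p = 0.0294, exact permutation p = 0.0857). That call was lost in the edgeR (adjusted p = 0.0669) and DESeq2 (0.0659) fits, and on leaving out any control but replicate 3, or replicate 2 or 4 of the other group (limma adjusted p 0.0666 to 0.0849). The count covers the whole gene, so it does not isolate the part flanked by loxP sites, and 3 annotated genes overlap Loxl2 (Mir6950 in sense, Gm37513 and Gm27177 in antisense). The use of strand in counting is not given in the sources used here, and 12 of the 31 tested genes, Loxl2 and Xpo7 among those called, overlap another annotated gene. Groups are therefore named by their labels, and differences are log2 differences of the knockout-labelled from the control libraries.

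The labelled tissue was checked against 13 lists of cell type markers. Cartilage markers were present, with summed values of 3763 to 11540 normalised reads in control libraries and 9581 to 13238 in libraries labelled knockout. Skeletal muscle markers made up 15.4% to 15.9% of control libraries and 9.44% to 12.2% of the others, with 7 of 18 genes called, each of them lower. Of the 18, 0 had a positive difference and 15 had an unadjusted limma p under 0.05, while edgeR called 13 and DESeq2 15. Fibroblast markers had 10 of 12 genes called and macrophage markers 10 of 10, each of them higher, and the ranges of both sums did not overlap between groups. Osteoclast markers had 7 of 8 genes called higher, chondrocyte markers 1 of 10 and Schwann cell markers 1 of 8. Of the osteoclast markers edgeR called 4 and DESeq2 4. Limma called 0 of 9 neutrophil, 0 of 4 neuron, 0 of 8 adipocyte, 0 of 6 endothelial, 0 of 6 B cell and 0 of 1 lung epithelium markers tested. At most 1 gene of each of these lists had an unadjusted p under 0.05 there, and DESeq2 called 1 adipocyte, 1 B cell and 1 neuron marker while edgeR called 0 in these 6 lists. In bulk tissue, fewer cells of a type and less RNA per cell cannot be told apart. The part of these shifts in the differences described below was not tested, except where values are given beside them.

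Of the 31 genes tested, 9 (29%) were called at a limma adjusted p under 0.05, against 23.2% of all 14949 genes tested. Those higher in the libraries labelled knockout were Loxl2, Egr3, Pdlim2, Slc39a14, Bmp1 and Lgi3, 6 genes (19.4%) against 11.6% of all genes. Those lower were Ppp2r2a, Rhobtb2 and Xpo7, 3 genes (9.68%) against 11.6%. The median log2 difference of the 31 genes was 0.17, and 0.09 without Loxl2, against 0.00 over all genes tested. Of the 31, 17 had a positive and 14 a negative difference. The share called was thus near the background, and the genes did not move in one direction. The 4 tested genes with a library under 10 reads, Cdca2, Stc1, Pebp4 and Phyhip, were not among those called.

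The groups did not overlap for 12 of the 31 genes (38.7%), 6 higher and 6 lower. Of all genes tested this held for 25.1% (11.7% higher and 13.4% lower). Among the 6 higher, Piwil2 (56.53 against 56.55 normalised reads) and Bin3 (150.3 against 150.5) only just separated. The count of calls depended on single libraries. It was 4 without control replicate 2 and 4 without control replicate 4, and 3 without knockout replicate 4, where 12.6%, 14.7% and 11.7% of all genes were called. Listed genes called higher were 1 without control replicate 2, 2 without knockout replicate 2, 3 without knockout replicate 1, and 0 without control replicate 4 or knockout replicate 4, where limma gave 9 and 7 of them an unadjusted p under 0.05. The same fits called 974, 1147, 1204, 1154 and 831 of all 14949 genes higher, in that order, against 1732 with every library. Dropping control 1 or 3 instead gave 5 higher listed genes each, and dropping knockout-labelled replicate 3 gave 7. Genes called higher over the whole set were then 1554, 1801 and 1840. With the mean log2 value of the muscle markers as a covariate, limma called 0 of 31 listed genes and 0 of all 14949. Of these, 0 and 642 had an unadjusted p under 0.05. Among the genes called without the covariate, Egr3 (-0.39), Bmp1 (-0.17) and Lgi3 (-0.52) changed sign. Uncalled listed genes changed sign too, among them Phyhip (1.63), Cdca2 (-1.12), Ebf2 (-0.63) and Stc1 (-0.50). The muscle marker sums did not overlap between groups, so this fit can hardly tell muscle content from group. With libraries scaled on genes outside the muscle, erythroid and neutrophil markers and the 50 highest genes, the median of all genes moved to 0.15. The listed genes called were then 10 higher and 2 lower in place of 6 and 3, while the calls over all genes went to 2708 higher and 785 lower from 1732 and 1729. Relative to that median, Loxl2 differed by 1.44, Bmp1 by 1.18, Rhobtb2 by -0.49 and Xpo7 by -0.53 on the log2 scale.

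**Figure D1:**
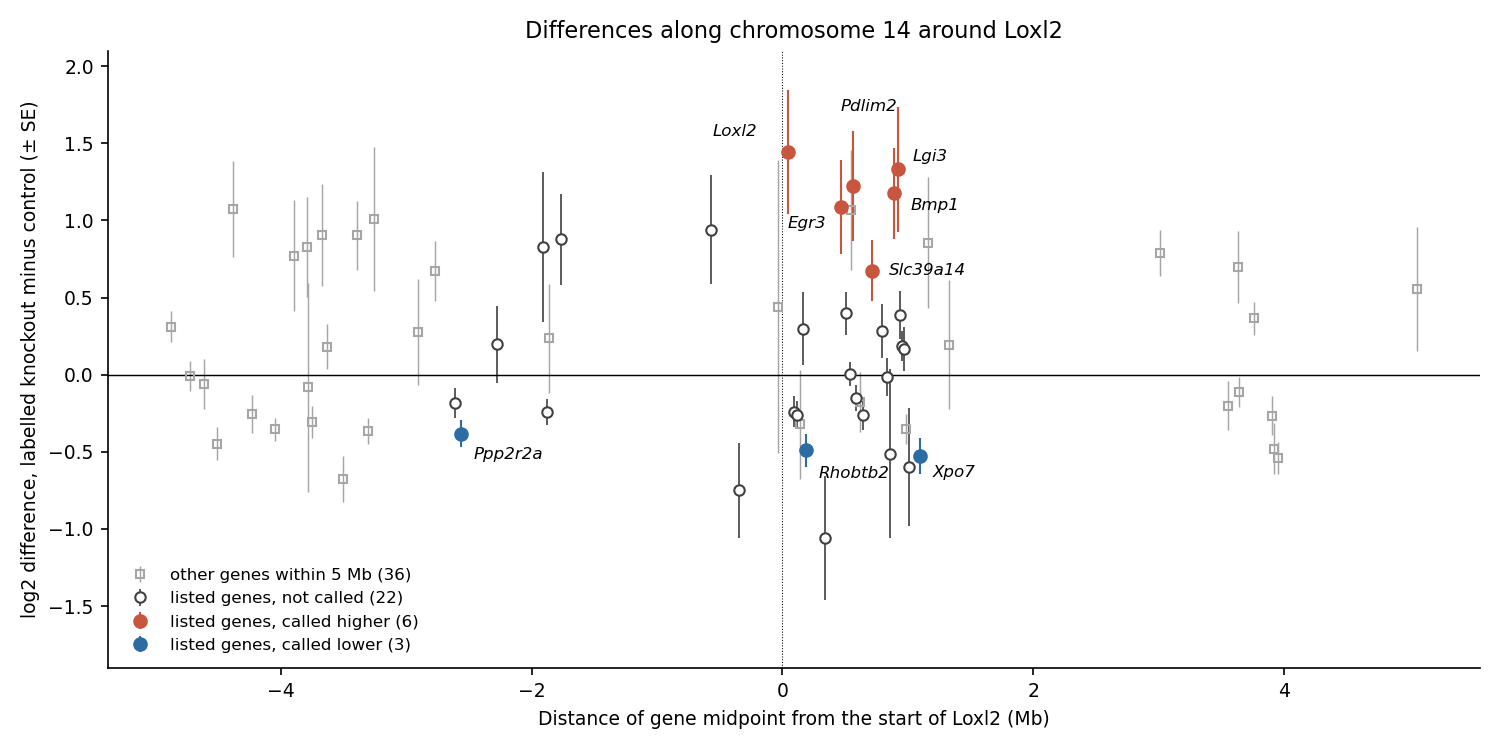
Log2 difference between groups, knockout-labelled minus control (vertical axis, points with moderated standard errors, n = 4 a group) against the distance of each gene's midpoint from the start of Loxl2 in Mb (horizontal axis). The 5 listed genes called higher besides Loxl2 lie within 1 Mb of its end, as do most listed genes, 24 of the 30 others tested being under 1 Mb away. The 3 called lower lie among uncalled genes both near it (Rhobtb2, Xpo7) and beyond 2 Mb (Ppp2r2a). Of the genes not on the list, 5 called higher lie 2 to 5 Mb away.

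The closest genes were examined first, since 4 listed genes that were tested lie within 100 kb of Loxl2. R3hcc1, which encodes a protein with an R3H domain, lies 1472 bp after Loxl2 (69697307 to 69707584, minus strand) and is transcribed towards it. R3hcc1 had 306, 290, 322 and 280 normalised reads in the control libraries and 245, 257, 277 and 234 in those labelled knockout. All 4 knockout-labelled values were below all 4 controls, and control replicate 3 was the highest control, as for Loxl2. The log2 difference was -0.24 ± 0.10 (SE), which limma did not call (adjusted p = 0.109, exact permutation p = 0.0286, the smallest the design allows).

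Chmp7, an ESCRT-III protein that works in sealing the nuclear envelope, lies 21165 bp after Loxl2. Chmp7 had 1108, 1098, 1097 and 918 normalised reads in control libraries and 822, 848, 960 and 884 in the others. Only control replicate 4 fell within the knockout-labelled range, and the log2 difference of -0.26 ± 0.09 (SE) was not called (limma adjusted p = 0.0623). It was called without control replicate 4 (-0.33, limma adjusted p = 0.0406) or knockout replicate 3 (-0.31, 0.0426). Tnfrsf10b, the mouse receptor of the death ligand TRAIL, lies 71637 bp after Loxl2. Tnfrsf10b had 54.1, 68.6, 74.8 and 37.2 normalised reads in control libraries and 58.8, 72.7, 73.9 and 75.7 in the others. These groups overlapped widely (log2 difference 0.30 ± 0.24, SE, limma adjusted p = 0.385).

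Rhobtb2, which encodes a BTB domain protein that binds the ubiquitin ligase scaffold cullin 3, lies 89155 bp after Loxl2 (69784990 to 69805636, minus strand) and was the only one of the 4 to be called. Rhobtb2 had 514, 455, 538 and 616 normalised reads in control libraries and 394, 386, 382 and 342 in those labelled knockout. Each knockout-labelled library lay below each control. Rhobtb2 differed by a log2 value of -0.49 ± 0.11 (SE, limma adjusted p = 0.0135), and the call was kept in all 8 fits that left out a library (limma adjusted p 0.0193 to 0.0428). So within 100 kb the difference of Loxl2 was 1.44 while those of its 4 tested neighbours on the list ran from -0.49 to 0.30.

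**Figure D2:**
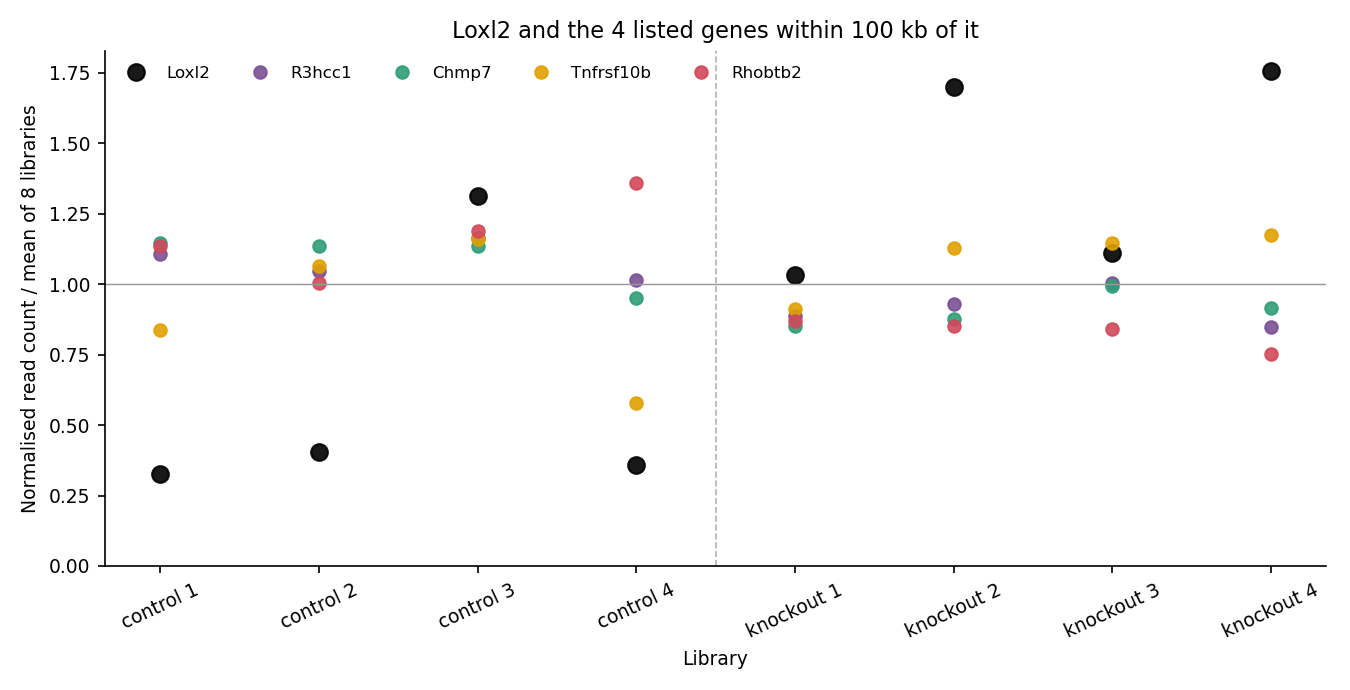
Normalised read count of Loxl2 and of the 4 listed genes within 100 kb of it, each divided by its mean over the 8 libraries (vertical axis), in each library (horizontal axis). Loxl2 is low in control replicates 1, 2 and 4 and high elsewhere, whereas Rhobtb2 and R3hcc1 are lower in all 4 libraries labelled knockout than in any control, and for Chmp7 control replicate 4 lies among the libraries labelled knockout.

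Before Loxl2 the nearest tested genes of the list were Slc25a37 and Stc1, 323955 bp and 567263 bp away. Neither was called. Slc25a37 encodes mitoferrin-1, which brings iron into mitochondria for haem synthesis, and is described with the erythroid markers below. Stc1 encodes stanniocalcin-1, a secreted glycoprotein hormone. It had 16.2, 9.08, 17.8 and 10.95 normalised reads in control libraries and 22.9, 35.9, 16.3 and 33.4 in the others, with a log2 difference of 0.94 ± 0.35 (SE, limma adjusted p = 0.0804). Knockout replicate 3 was the only one inside the control range, and without it Stc1 was called (1.15, limma adjusted p = 0.0421).

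Among the 5 tested genes for secreted proteins, 3 were called, Loxl2, Bmp1 and Lgi3, and each was higher. Of all genes tested, 23.2% were called and 11.6% were called higher. The same shares stand beside the other groups of function below, each of few genes, and the counts are descriptions. Bmp1 had the highest level per kb of the 5. Bmp1 encodes the protease that removes the C-terminal propeptide of fibrillar procollagens, and it lies 778723 bp after Loxl2 (70474558 to 70520234, minus strand). Its normalised read counts were 1705, 764, 1731 and 828 in control libraries and 2287, 3083, 2010 and 3435 in those labelled knockout. The groups did not overlap, although controls 1 and 3 lay nearer to knockout replicate 3 than to controls 2 and 4. Bmp1 had a log2 difference of 1.18 ± 0.29 (SE, limma adjusted p = 0.0201). Bmp1 lost its call on leaving out control replicate 2 or 4, or the knockout-labelled replicate 2 or 4 (limma adjusted p 0.0531 to 0.0630).

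The values of Bmp1 stood in nearly the same order as the summed fibroblast markers. Those sums were 143863, 82578, 199019 and 70664 in control libraries and 319074, 335216, 221236 and 379598 in the others. Of the 12 pairs of libraries within a group, 11 were ordered alike for Bmp1 and the fibroblast sum. Lgi3 also had 11, Stc1 had 10 and Loxl2 had 9. At least 10 such pairs were found for 3 of the 31 listed genes (9.68%) and for 7.22% of all genes tested. The order was not particular to the fibroblast list. Bmp1 also had 11 pairs with the macrophage sum and 10 with the neuron sum, and Lgi3 had 11 with the chondrocyte sum. With these sums at least 10 pairs were found for 9.68%, 6.45% and 6.45% of the listed genes. Of all genes tested, the shares were 9.18%, 5.56% and 4.72%. With the skeletal muscle sum the order was reversed or nearly so, with 0 of 12 pairs alike for Bmp1, 1 for Stc1 and 2 for Lgi3. The share of all genes with so few pairs was not counted.

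Lgi3 encodes a secreted leucine-rich repeat protein and lies 834850 bp after Loxl2 (70530685 to 70538324, plus strand). It had 22.7, 20.2, 23.4 and 18.6 normalised reads in control libraries and 28.9, 83.8, 34.8 and 105 in those labelled knockout. The groups were separate, but knockout replicates 1 and 3 lay close to the controls and replicates 2 and 4 far above. Lgi3 had a log2 difference of 1.33 ± 0.40 (SE, limma adjusted p = 0.0397), and it was not called without any 1 of the 4 controls or without knockout replicate 2 or 4 (limma adjusted p 0.0563 to 0.107). Under quantile normalisation it was 1.05 (adjusted p = 0.0946).

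The remaining secreted proteins were near the limit of detection. Pebp4, of the phosphatidylethanolamine-binding family, lies 144585 bp after Loxl2. Pebp4 had 17.3, 18.2, 9.35 and 13.1 normalised reads in control libraries and 5.98, 4.28, 5.44 and 10.6 in the others (log2 difference -1.06 ± 0.40, SE, limma adjusted p = 0.0820). Knockout replicate 4 overlapped the controls. Fgf17, a fibroblast growth factor, had 3.24, 4.04, 3.74 and 0 normalised reads in control libraries and was listed at 0 in all 4 libraries labelled knockout. Since a count of 0 allows up to 3 reads in a library, no fold is given for Fgf17, and intervals of this kind cover counting error only.

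**Figure D3:**
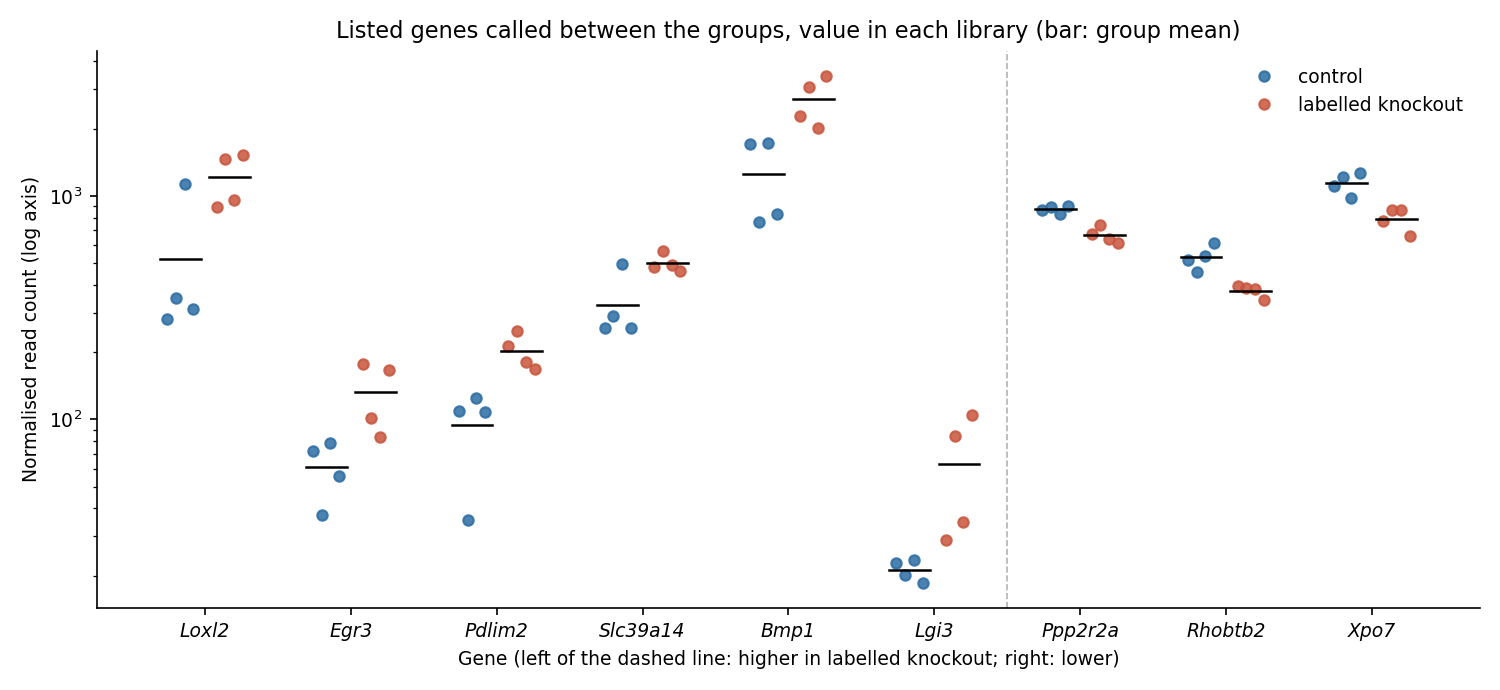
Normalised read count (vertical log axis) of the 9 listed genes called between the groups, 1 point per library and a bar at the group mean, n = 4 a group. Loxl2 and Slc39a14 each have 1 control library, replicate 3, within the knockout-labelled range, and the other 7 genes have groups that do not overlap.

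Of the 4 tested genes of membranes, transport and mitochondria, Slc39a14 alone was called. Slc39a14, 607634 bp after Loxl2 (70303469 to 70351425, minus strand), encodes ZIP14, a carrier that imports zinc, manganese and iron. Its normalised read counts were 256, 289, 494 and 257 in control libraries and 480, 565, 490 and 459 in those labelled knockout. As for Loxl2, control replicate 3 was inside the knockout-labelled range and the other 3 controls were well below. For Slc39a14 the log2 difference was 0.67 ± 0.20 (SE, limma adjusted p = 0.0356, exact permutation p = 0.114). The call of Slc39a14 was lost without any 1 library other than control replicate 3 (limma adjusted p 0.0544 to 0.0909), and without control replicate 3 the difference was 0.89 (limma adjusted p = 0.00249). edgeR gave 0.63 (adjusted p = 0.0505).

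Control replicate 3 was compared in the same way for every gene. It was the highest of the 4 controls for 13 of the 30 listed genes other than Loxl2 (43.3%), against 25.2% of all genes tested. It exceeded the mean of the other controls by 1.85 for Loxl2, by 0.89 for Slc39a14, by 0.75 for Bmp1, by 0.74 for Pdlim2, by 0.56 for Stc1, by 0.55 for Egr3 and by 0.52 for Tnfrsf10b on the log2 scale. For R3hcc1 and Chmp7, the nearest genes, the excess was 0.14 and 0.08. For Bmp1 and Pdlim2, control replicate 1 stood close to control replicate 3, at 1705 and 109 normalised reads against 1731 and 125. The same held for Stc1 (16.2 against 17.8) and Egr3 (72.5 against 78.5). For Tnfrsf10b, control replicate 2 stood close to it (68.6 against 74.8). Of the genes with these excesses, only Loxl2 and Slc39a14 had control replicate 3 well apart from all other controls. Other listed genes had lower values in control replicate 3 than the mean of the other controls, with -1.77 for Phyhip, -1.39 for Dmtn, -0.81 for Slc25a37 and -0.72 for Pebp4. Among the 36 other tested genes of the window, control replicate 3 was the highest control for 19.4%. Control replicate 3 also had the highest fibroblast sum of the controls, and the part of that in these values was not tested.

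Whether the neighbours went with Loxl2 among libraries of the same group was then described by the order of the libraries, which the difference between the groups does not enter. Of the 12 pairs of libraries within a group, the listed genes other than Loxl2 had a median of 6 ordered as for Loxl2, and the median of all genes tested was also 6. At least 10 pairs were ordered alike for 3 of the 30 genes (10%) and for 5.39% of all genes. Those 3 were Ebf2 with 11 and Lgi3 and Tnfrsf10b with 10. R3hcc1 and Chmp7 had 6 and Rhobtb2 had 4. These counts share the same 8 libraries and are given without a test.

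**Figure D4:**
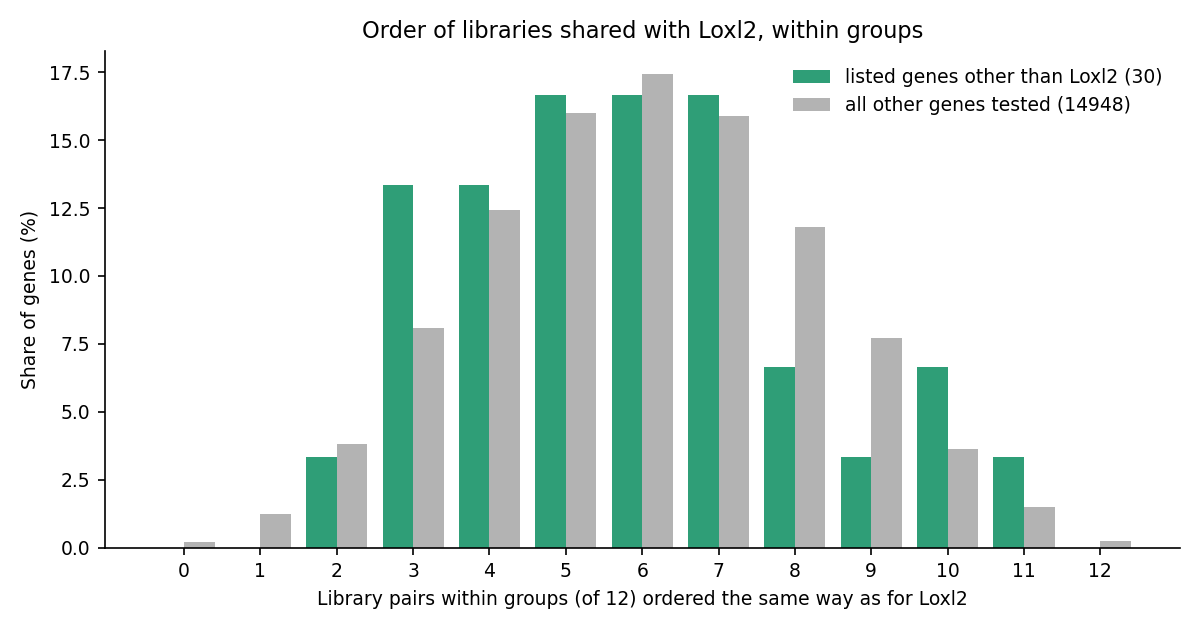
Share of genes in percent (vertical axis) by the number of library pairs within groups, of 12, that are ordered as for Loxl2 (horizontal axis), for the 30 other listed genes tested and for the 14948 other genes tested. Both distributions are centred on 6 pairs.

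The 5 tested cytoskeletal and adhesion genes held 1 called gene, Pdlim2, which encodes a PDZ and LIM domain protein of the actin cytoskeleton and lies 468383 bp after Loxl2 (70164218 to 70177681, minus strand). Pdlim2 had 109, 35.3, 125 and 107 normalised reads in control libraries and 213, 248, 181 and 167 in those labelled knockout. Control replicate 2 stood far below the other controls, and the groups did not overlap. This gave a log2 difference of 1.22 ± 0.36 (SE, limma adjusted p = 0.0348). Without control replicate 4 or knockout replicate 1, 2 or 4 the call of Pdlim2 was lost (limma adjusted p 0.0522 to 0.0870), as it was under quantile normalisation (1.03, adjusted p = 0.0574).

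Pdlim2 lies between listed genes that did not pass the test. Ccar2, a nuclear protein that inhibits the deacetylase SIRT1, had 438 to 453 normalised reads in control libraries and 437 to 462 in the others, a log2 difference of 0.01 ± 0.08 (SE, limma adjusted p = 0.958). On the other side Sorbs3, the adhesion adaptor vinexin, had 1267 to 1387 and 1068 to 1279 normalised reads, a log2 difference of -0.15 ± 0.08 (SE, limma adjusted p = 0.211). Bin3, a membrane-bending BAR domain protein, had groups that did not overlap, with 110 to 150 and 151 to 185 normalised reads (log2 difference 0.40 ± 0.14, SE, limma adjusted p = 0.0691). Bin3 was called without control replicate 1 (0.48, limma adjusted p = 0.0480). The annotations of Bin3 and Ccar2 overlap by 43 bp at their ends on opposite strands.

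Dock5, an exchange factor of the GTPase Rac that osteoclasts use in bone resorption, lies 1675625 bp before Loxl2. Dock5 had 121, 58.5, 64.5 and 64.6 normalised reads in control libraries and 195, 87.2, 125 and 162 in the others (log2 difference 0.88 ± 0.30, SE, limma adjusted p = 0.0567). Control replicate 1 stood alone among the controls and also had the highest osteoclast marker sum of them, 14065 against 1868 to 2535. Of the 12 pairs within groups, 11 were ordered alike for Dock5 and the osteoclast sum, and 10 for Dock5 and the lung epithelium sum. At least 10 pairs were ordered as for the osteoclast sum for 3 of the 31 listed genes (9.68%), Dock5, Egr3 and Bin3. The share of all genes tested was 5.81%. For the lung epithelium sum the shares were 9.68% and 4.58%. Without control replicate 1 Dock5 was called (1.11, limma adjusted p = 0.0233), as it was without knockout replicate 2 (1.09, 0.0344), and DESeq2 called it with all libraries (adjusted p = 0.0237).

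Of the 5 tested genes of signalling, phosphatases and ubiquitin, 2 were called, Rhobtb2 and Ppp2r2a, and both were lower. Of all genes tested, 11.6% were called lower. Both phosphatase subunits among the 5 had lower values in all 4 libraries labelled knockout than in any control, as had 13.4% of all genes tested. Ppp2r2a encodes the B55 alpha subunit that directs protein phosphatase 2A to its substrates, and it lies 2536623 bp before Loxl2 (67014056 to 67072444, minus strand). Ppp2r2a had 864, 890, 825 and 899 normalised reads in control libraries and 678, 744, 639 and 614 in those labelled knockout. The log2 difference was -0.38 ± 0.08 (SE, limma adjusted p = 0.0139), and the call was kept in all 8 fits that left out a library. Under the scaling without muscle, erythroid and neutrophil markers Ppp2r2a was not called (-0.23, limma adjusted p = 0.0672), but its difference relative to the shifted median of all genes was again -0.38. Ppp3cc, a catalytic subunit of calcineurin, had 313 to 356 and 275 to 308 normalised reads (log2 difference -0.26 ± 0.09, SE, limma adjusted p = 0.0688), and was called under quantile normalisation (adjusted p = 0.0415).

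Kctd9, a BTB domain protein, likewise had separate groups, with 929 to 973 normalised reads in control libraries and 756 to 921 in the others, a log2 difference of -0.24 ± 0.09 (SE, limma adjusted p = 0.0654). It was called without knockout replicate 2 (-0.31, limma adjusted p = 0.0336). Kctd9 and Cdca2 are transcribed away from each other, with 95 bp between their annotated starts. Cdca2, which brings protein phosphatase 1 to the chromosomes of dividing cells, had 15.1, 8.08, 8.41 and 10.95 normalised reads in control libraries and 31.9, 26.5, 6.52 and 22.9 in the others. Its log2 difference was 0.83 ± 0.49 (SE, limma adjusted p = 0.240), and without knockout replicate 3, the lowest library of all, it was called (1.30, limma adjusted p = 0.0273). The point estimates of this pair of genes had opposite signs, which was not tested further.

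Of the 5 tested transcription genes, Egr3 was called. Egr3 encodes an immediate early zinc finger factor and lies 381368 bp after Loxl2 (70077203 to 70082614, plus strand). It had 72.5, 37.3, 78.5 and 55.9 normalised reads in control libraries and 178, 102, 83.7 and 166 in those labelled knockout. The groups did not overlap, though knockout replicate 3 lay just above control replicate 3. The log2 difference was 1.09 ± 0.31 (SE, limma adjusted p = 0.0301). Egr3 lost its call on leaving out control replicate 2 or 4, or the knockout-labelled replicate 1 or 4 (limma adjusted p 0.0676 to 0.0903) and under quantile normalisation (0.85, adjusted p = 0.0652).

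The other transcription genes did not pass the test. Ebf2, a factor of brown fat and bone cell lineages, had 69.2 to 81.3 normalised reads in control libraries and 53.9 to 120 in the others (log2 difference 0.20, limma adjusted p = 0.592). Hr, the hairless corepressor, had 1743 to 1990 and 1837 to 2358 normalised reads (log2 difference 0.19, limma adjusted p = 0.185). Hr was called under quantile normalisation (0.36, limma adjusted p = 0.0382). Polr3d, a subunit of RNA polymerase III, differed by -0.02 on the log2 scale (limma adjusted p = 0.941).

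The order of the libraries was also set beside that of the erythroid markers. The summed erythroid markers were 34039, 42974, 16826 and 99192 normalised reads in control libraries and 6154, 15176, 42712 and 4052 in the others, so the groups overlapped widely, and 0 of 9 marker genes were called by limma, 8 of them with an unadjusted p under 0.05 (1 called by DESeq2, 0 by edgeR). Slc25a37 had 1073, 1329, 844 and 2265 normalised reads in control libraries and 695, 834, 1144 and 514 in those labelled knockout. Control replicate 4 was the highest library and knockout replicate 4 the lowest for Slc25a37 and for the erythroid sum. All 12 pairs of libraries within groups were ordered alike for both, which held for 0.562% of all genes tested. The log2 difference of Slc25a37 was -0.75 ± 0.31 (SE, limma adjusted p = 0.104), while DESeq2 called it (-0.78, adjusted p = 0.0408), and so did limma without control replicate 3 (-0.95, adjusted p = 0.0492).

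Bnip3l, the mitophagy receptor NIX that clears mitochondria from maturing red cells, had 1241, 1413, 1167 and 1479 normalised reads in control libraries and 1174, 1120, 1281 and 1081 in the others. Its groups overlapped (log2 difference -0.18 ± 0.10, SE, limma adjusted p = 0.199). Dmtn, dematin of the red cell membrane skeleton, had 174, 223, 83.2 and 272 normalised reads and then 69.8, 146, 171 and 95.1, and overlapped as widely (log2 difference -0.60 ± 0.38, SE, limma adjusted p = 0.279). For Bnip3l and Dmtn, as for Xpo7 and Phyhip, 11 of the 12 pairs within groups were ordered as for the erythroid sum. Bnip3l also had 11 pairs ordered as for the skeletal muscle sum, and Slc25a37 had 10. At least 10 such pairs were found for 2 of the 31 listed genes (6.45%) and for 7.94% of all genes tested. With the fibroblast sum Bnip3l had 0, Slc25a37 had 1, and Dmtn, Xpo7 and Phyhip had 2 each. How many of all genes had so few pairs was not counted.

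Xpo7, exportin 7, is a nuclear transport receptor also known from the nuclear maturation of red cell precursors. It lies 958411 bp after Loxl2 (70654246 to 70766628, minus strand) and was called lower. Of the 7 tested genes grouped under cell division, RNA and chromatin it was the only one called. Xpo7 had 1111, 1208, 980 and 1264 normalised reads in control libraries and 769, 868, 867 and 662 in those labelled knockout. The groups did not overlap. The log2 difference was -0.53 ± 0.12 (SE, limma adjusted p = 0.0131), and the call was kept in all 8 fits that left out a library (limma adjusted p 0.00917 to 0.0406). Xpo7 overlaps Npm2 on the same strand and Dok2 and Gm49244 on the opposite strand. In all, 6 of the 31 listed genes (19.4%) had at least 10 pairs ordered as for the erythroid sum, against 7.18% of all genes tested, and these were Slc25a37, Bnip3l, Dmtn, Xpo7, Phyhip and Ppp2r2a. The part of the erythroid markers in these differences was not tested.

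**Figure D5:**
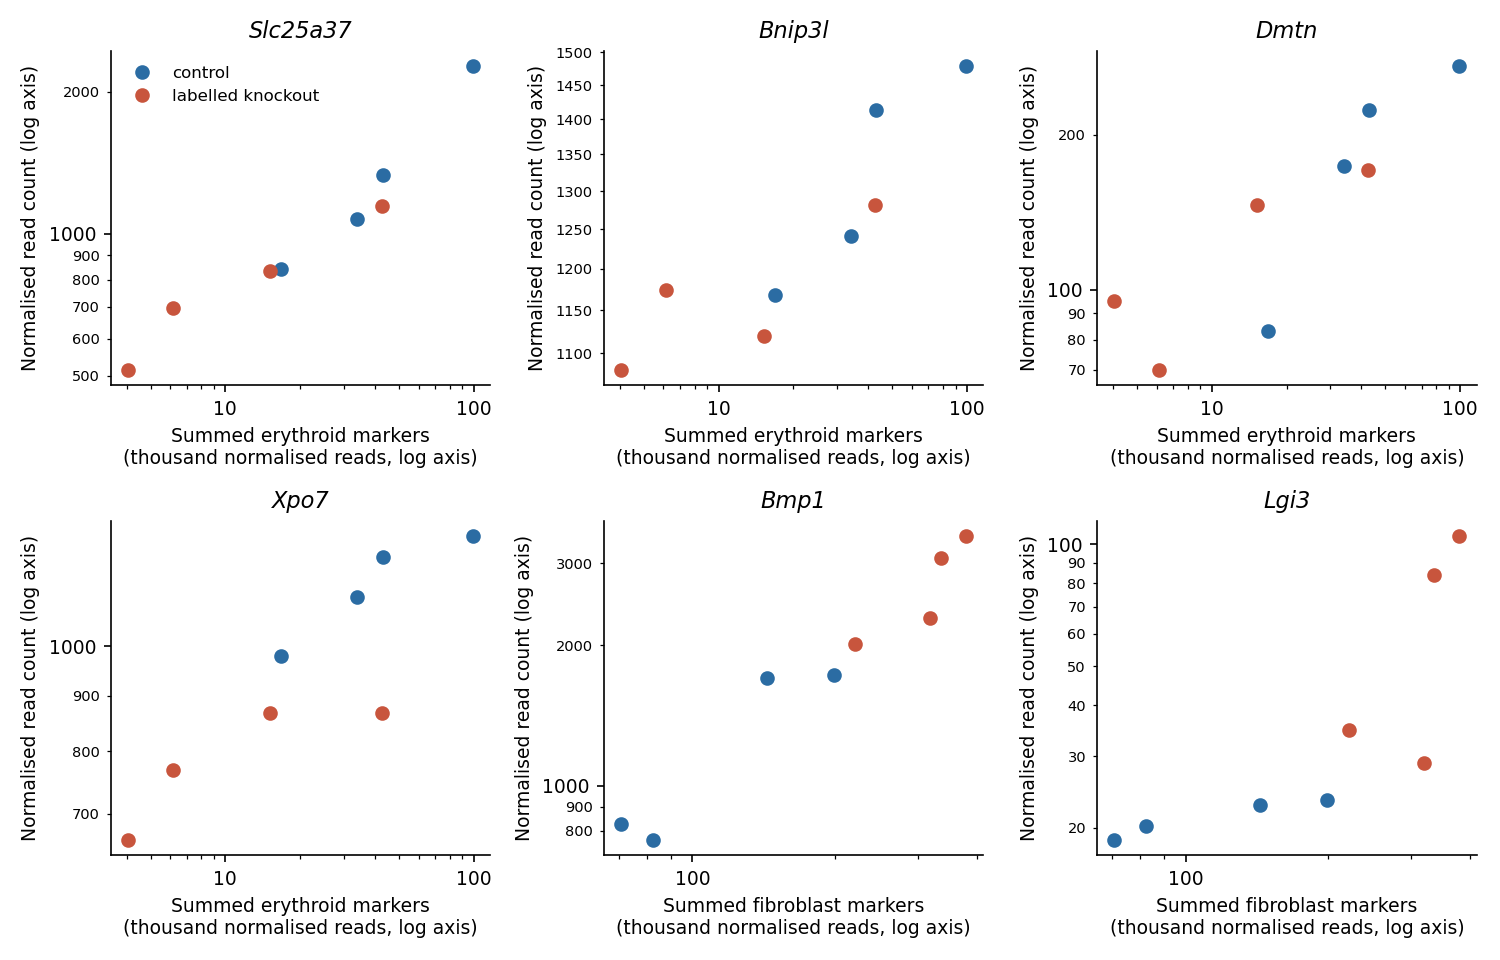
Normalised read count of 6 listed genes (vertical log axes) against the summed markers of a cell type, in kiloreads after normalisation (horizontal log axes), 1 point per library, 4 of each group. The 8 libraries stand in the same order for Slc25a37 and the erythroid sum. Of the 12 pairs of libraries within groups, 11 are ordered alike for Bmp1 and for Lgi3 and the fibroblast sum, although Lgi3 is 28.9 in knockout replicate 1, where that sum is 319074.

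The other genes grouped under cell division, RNA and chromatin, a heading that also holds Nudt18 and Phyhip, were not called. Reep4, which clears endoplasmic reticulum from mitotic chromosomes, had 88.7 to 105 normalised reads in control libraries and 105 to 142 in the others (log2 difference 0.39, limma adjusted p = 0.0950). Piwil2, a Piwi protein of the germ line, had groups at low levels that only just separated. They ran from 48.6 to 56.53 and from 56.55 to 76.8 normalised reads (log2 difference 0.28, limma adjusted p = 0.266). Nudt18, a nucleotide hydrolase, differed by 0.17 (limma adjusted p = 0.415). Phyhip, which binds the peroxisomal enzyme phytanoyl-CoA hydroxylase, had 7.48 to 31.8 and 7.04 to 31.5 normalised reads. Npm2, an oocyte histone chaperone, had 5.48 to 12.98 and 5.13 to 13.1 normalised reads and was not tested.

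Levels were compared between genes as control means per kb of annotated exon. They ran from 1.86 normalised reads per kb for Cdca2 to 362 for Sorbs3, followed by Bnip3l (343), Hr (270), Slc25a37 (229) and Kctd9 (201). Loxl2 stood at 96.1 per kb in control libraries and 224 in those labelled knockout, and Bmp1 at 142 and 305. Among the 9 called genes, the 3 lower ones had control levels of 52.4 (Rhobtb2), 60.0 (Xpo7) and 162 (Ppp2r2a) per kb.

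The rest of the window of 5 Mb on either side of Loxl2 held 36 further tested genes. Of these, 11 were called (30.6%, against 23.2% of all genes), 5 higher and 6 lower, with a median log2 difference of 0.19. The higher genes of smallest p were Fndc3a (0.79, limma adjusted p = 0.00825), Ptk2b (0.90, 0.0194) and Fzd3 (1.07, 0.0326). The lower ones were Sucla2 (-0.54, limma adjusted p = 0.00941), Elp3 (-0.35, 0.0112) and Ephx2 (-0.67, 0.0134). Only 1 of the 11, Fam160b2 (-0.35, limma adjusted p = 0.0273), lies within 1 Mb of Loxl2, between Nudt18 and Dmtn. It is named here after its value was seen. The count was 5 without control replicate 2, 7 without control replicate 4 and 6 without knockout replicate 4.

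By distance, 8 of 29 tested genes under 1 Mb from Loxl2 were called (27.6%), 0 of 6 between 1 and 2 Mb by limma (2 had an unadjusted p under 0.05, DESeq2 called 1 and edgeR 0) and 11 of 31 between 2 and 5 Mb (35.5%). Loxl2 itself is left out of these counts. Their median log2 differences were 0.01, 0.53 and -0.01. Outside the window 94 of 445 tested genes of chromosome 14 were called (21.1%), and over the 20 chromosomes the share ran from 17.5% on chromosome 17 to 26.8% on chromosome 10. The share called under 1 Mb thus lay between that of all genes and that of the far part of the window.

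Genes next to each other were also compared in sign. Of the 30 successive pairs of tested listed genes, 16 had differences of the same sign (53.3%), against 53.7% of 14811 adjacent pairs of tested genes over all chromosomes. In 1 of the 30 pairs both genes were called, Bmp1 and Lgi3, and both were higher. Over all chromosomes both genes were called in 886 of the 14811 adjacent pairs, with the same sign in 60.6% of those, and among the adjacent tested genes of the window in 4 of 66 pairs, with the same sign in 1. The median step in log2 difference from one listed gene to the next was 0.60, against 0.43 between adjacent genes over all chromosomes.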

How the data were processed

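Per the submitters' processing notes, the reads were processed with HISAT2, featureCounts and build mm10, and the design text names DESeq2 for normalisation and filtering. Versions, annotation and strand setting are not given in the sources used here. The deposited values are a normalised signal whose steps are those of counts divided by a size factor per library. In each column 100% of values were whole multiples of its smallest value (tolerance 0.01), which gave back whole reads. In control replicate 2 and knockout replicate 1 that step is close to 1 and says little by itself. The smallest sum of reads over 8 libraries was 10. 0 value columns were unmapped.

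Genes that reached a value of 10 in 4 or more of the 8 libraries were tested. A linear model with a term for the group was fitted to log2(value + 1) over all genes with limma 3.58.1 (eBayes with trend), with Benjamini-Hochberg adjustment over all genes tested. A gene was called at an adjusted p under 0.05. Fold changes are on this log2 scale and understate changes of low genes. Exact two-sided permutation tests used the 70 assignments of libraries, for which the smallest p is 0.0286. edgeR 4.0.16 and DESeq2 1.42.0 on the recovered reads were alternatives. All 3 tools were tested on simulated data.

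Groups came from the sample titles, and no library repeated another (chi-square per degree of freedom 25.0 to 66.9 over 12 pairs within groups). Positions, exon lengths and overlaps came from GENCODE M21 on the same build, to which 99.2% of rows matched by symbol. The listed genes and marker lists were chosen with earlier results of these data known. All listed genes could be named. The promoter motif search of the design was not run. Other genes of the window were named where called and of the 3 smallest p in each direction, or where stated beside them. The count of library pairs ordered alike was added after the data were seen. Alternatives were pseudocount, filter, scaling, tool, replicate block, muscle covariate and leaving out each library. Other marker lists were neuron, Schwann cell, adipocyte, endothelial, B cell and lung epithelium.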

Additional observations from a re-analysis of the deposited data

Results flagged for a closer look

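In groups of 4, a library was looked at again where its gap to the nearest other library was above Dixon's critical share of the group's range. Of 66 groups of listed genes, 4 met this, where chance gives about 5%. Loxl2 had 1135 normalised reads in control replicate 3, against 282 to 349 in the other controls. Slc39a14 had 494 in control replicate 3, against 256 to 289. Chmp7 had 918 in control replicate 4, against 1097 to 1108. Dock5 had 121 in control replicate 1, against 58.5 to 64.6.

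Entpd4b and Gm21451, which lie just before Loxl2 and are not on the list, also met the criterion. They were chosen after their values were seen, and other unlisted genes are not described. Entpd4b, 23547 bp before Loxl2, had 213 normalised reads in knockout replicate 4 and 5.98 to 15.2 in the other libraries labelled knockout, with 9.86 to 20.2 in control libraries. In the annotation, 100% of the 50-base words of Entpd4b transcripts also occur in Entpd4 transcripts, so reads cannot be assigned to one of the pair by such words, and the Entpd4b count is uncertain. Gm21451, 128780 bp before Loxl2 and annotated as an unprocessed pseudogene, had 23.4 normalised reads in control replicate 3 and 0 to 3.03 in the other controls, and was listed at 0 in the libraries labelled knockout. It shared 0 of its 2726 50-base words with Entpd4b.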

How the results depend on the processing

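Of the listed genes 9 were called (6 higher, 3 lower) with a median log2 difference of 0.17, beside 11 other genes of the window and a difference of 1.44 for Loxl2. Pseudocounts of 0.1 and 10 and TMM scaling left these counts as they were. The median was 0.0537 with no filter, 0.0878 with a minimum of 50, and -0.0174 under quantile normalisation, where the median of all genes moved to -0.08. Scaling without muscle, erythroid and neutrophil markers and the top 50 genes gave 10 higher and a median of 0.32 (0.15 over all genes). Relative to that median the differences were 0.40 for Bin3, 0.39 for Reep4 and 0.19 for Hr, whose calls were gained, and 0.88 for Dock5 (limma adjusted p = 0.0383). Loxl2 was 1.23 by edgeR (adjusted p = 0.0669) and 1.23 by DESeq2 (0.0659). With the muscle covariate the counts were 0 called, 0 higher, 0 lower and 0 elsewhere in the window, the median was 0.0283 and Loxl2 0.64 (limma adjusted p = 0.988). Of the genes called without it, Egr3 (-0.39), Bmp1 (-0.17) and Lgi3 (-0.52) then reversed, and some uncalled listed genes did too. That covariate was the mean log2 value of the muscle markers. The sums of these markers did not overlap between groups, so muscle content and group can hardly be told apart. A narrower window held fewer genes, with 1 other gene called within 1 Mb and 1 within 2 Mb.

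The labels do not say whether libraries of the same replicate number belong together. The correlations of deviations between such libraries were 0.213, -0.118, -0.233 and -0.0630. With 4 libraries a group these values cannot exclude a pairing. With the replicate number as a block, 5 listed genes (16.1%, 2 higher) and 7 others of the window were called, against 13.5% of all genes, and Loxl2 was 1.44 (limma adjusted p = 0.0513). The calls of Slc39a14 (0.0512), Bmp1 (0.0580), Pdlim2 (0.0665) and Lgi3 (0.0702) were lost with the block, and Dock5 was gained (0.0320).

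Leaving out each library in turn gave 3 to 11 calls, 0 to 7 higher, 3 to 4 lower, 5 to 12 elsewhere in the window, a median of 0.0405 to 0.191 and 1.24 to 1.91 for Loxl2. Ppp2r2a, Rhobtb2 and Xpo7 kept their calls in all 8 such fits, and each of the 6 higher genes lost its call in 4 to 7. Except as stated, the cause of these changes was not tested. The 4 libraries a group limit what could be detected, and Stc1, Pebp4, Cdca2 and Phyhip each had a library under 10 normalised reads.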
